A study of Mus musculus with 12 samples.

Results

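The genes described here encode linker and core histones, the proteins that package DNA into chromatin. The list held 5 mouse genes (H1f2, H1f0, H2aw, H2bc22 and H2ax), chosen by name with earlier results of these same arrays known. For 4 of them, of 18194 genes measured in all, the annotation used here had a probe set naming that gene alone, 7 probe sets in total. H1f0 had none and was not analysed here. RNA came from I/11 cells, an immature erythroid progenitor line established from fetal liver of mice that lack p53, kept in erythropoietin, stem cell factor and dexamethasone. The groups were a line stably infected with the Plcg1 hairpin sh14, a line with the Plcg1 hairpin sh133, and a control line with a scrambled hairpin (scr), all on a puromycin-resistance vector. Each line was sampled at 1, 6, 12 and 22 h, with 1 array per line and time and 4 arrays per line. The labels give neither the event from which the hours were counted nor whether a line was a clone or a pool.

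Core histones (H2A, H2B, H3 and H4) form the nucleosome, and the linker histone H1 binds the DNA where it enters and leaves. Most histone genes are replication-dependent: they are transcribed in S phase, and their mRNAs end in a stem-loop in place of a poly(A) tail. Others, such as the H2A.Z and H3.3 genes, are expressed through the cell cycle, and H2ax mRNA can be made in both forms. Erythroid nuclei condense strongly as the cells mature.

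The promoters of the measured genes are shown because H1f2 and H2aw, which lie on different chromosomes, both fell with time. H2bc22 also fell from 1 to 22 h in each line. The RefSeq promoter table (build GRCm38.p6) held 3 of the 4. Each window is 300 bases long and holds the gene's start near its end. Both strands were searched. Capitals mark matches to the CCAAT box, to either of the TATA-like words TATATA and TATAAA, to the octamer ATGCAAAT and to the H1 box with the letters AAACACA.
H1f2 (chr13:23738557-23738856, plus strand): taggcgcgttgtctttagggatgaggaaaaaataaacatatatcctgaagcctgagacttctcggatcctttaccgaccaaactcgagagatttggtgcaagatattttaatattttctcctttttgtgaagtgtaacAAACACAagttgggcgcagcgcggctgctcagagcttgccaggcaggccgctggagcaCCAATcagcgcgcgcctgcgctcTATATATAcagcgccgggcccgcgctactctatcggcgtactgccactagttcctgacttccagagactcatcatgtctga
H2aw (chr11:58954435-58954734, plus strand): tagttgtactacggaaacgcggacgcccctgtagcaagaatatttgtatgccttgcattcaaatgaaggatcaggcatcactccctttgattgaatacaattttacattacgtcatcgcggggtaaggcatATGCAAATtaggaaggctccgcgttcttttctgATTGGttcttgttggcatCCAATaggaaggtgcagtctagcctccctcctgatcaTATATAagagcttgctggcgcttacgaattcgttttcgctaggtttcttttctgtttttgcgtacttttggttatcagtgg
H2bc22 (chr13:21787238-21787537, plus strand): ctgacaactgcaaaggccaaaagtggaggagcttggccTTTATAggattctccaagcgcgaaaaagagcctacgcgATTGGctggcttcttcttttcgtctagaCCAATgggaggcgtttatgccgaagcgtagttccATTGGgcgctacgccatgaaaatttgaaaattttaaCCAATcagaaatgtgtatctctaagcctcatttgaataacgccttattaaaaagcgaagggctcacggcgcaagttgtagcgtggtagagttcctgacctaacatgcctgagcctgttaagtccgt
All 3 windows held CCAAT, with 1 match for H1f2, 2 for H2aw and 4 for H2bc22, and 37.4% of 32851 promoters did so. TATATA was found in H1f2 (2 overlapping matches) and H2aw (1 match), not in H2bc22, and in 5.67% of all promoters. The H1 box stood only in the H1f2 window of these 3 (7.18% of all promoters), and the octamer only in the H2aw window (1.74%). TATAAA was matched once, on the minus strand of H2bc22 (13.6% of all promoters). These matches are letters in a window and do not show binding. Whether any of them bears on the time courses was not tested.

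The deposited values are log2 signals made with RMA, which equalises the distributions of the arrays, and the array medians lay between 1.84 and 1.92. Plcg1, the targeted gene, had a log2 signal of 4.15 ± 0.20 in sh14, 4.41 ± 0.08 in sh133 and 4.53 ± 0.19 in scr (SD, n = 4 arrays each, which differ in time). The erythroid regulator genes Gata1, Klf1 and Tal1 lay at 7.49 or above on all arrays, and the 1 probe set naming Hba-a1 alone was at or below 1.29. All 8 tested erythroid markers rose for 22 h minus 1 h by the limma test, against 8.74% of all genes. Relative to scr 3 of the 8 fell in sh14 and 1 in sh133, against 1.56% and 2.45% of all genes. The log2 of the summed signal of 9 erythroid markers ran from 10.7 to 11.6 in sh14, 10.9 to 11.9 in sh133 and 10.9 to 12.1 in scr. For 7 mast cell and basophil markers it ran from 7.55 to 8.83 in sh14, 6.58 to 9.09 in sh133 and 6.79 to 9.59 in scr, with Mcpt8 at or below 1.12 on all arrays. Of these 4 of 6 tested genes rose in sh14 relative to scr and 0 in sh133, against 1.5% and 2.45% of all genes. For 22 h minus 1 h 4 of the 6 fell, as H1f2, H2aw and H2bc22 did, and 1 rose, against 9.34% and 8.74% of all genes. Among those that fell were Hdc (-3.29), Ms4a2 (-1.30) and Cpa3 (-1.06). For 6 megakaryocyte markers the range was 7.63 to 8.14 in sh14, 6.89 to 8.18 in sh133 and 6.10 to 6.83 in scr. Every hairpin array thus lay above every scr array, as it did for H2aw, but how often such sums separate was not counted. Of 5 tested genes 1 passed as higher in each hairpin line, a different gene in each: Itga2b in sh14 (1.85) and Pf4 in sh133 (2.21). The shares of all genes called higher were 1.5% and 2.45%. The part of other cells' RNA in the histone values was not tested. The array titles carry 2 date strings, on 6 arrays each, and the labels do not say what they record. The 4 sh14 arrays carry the first string, as do those of sh133 at 6 and 12 h (date set 1). The second (date set 2) is on the 4 scr arrays and on sh133 at 1 and 22 h. No sh14 array shared a set with an scr array, so these 2 lines could be compared only through a term for the set, which rests on sh133 alone. With 1 array per line and time, and no label that states separate cultures, the errors measure only what line, time and set leave over.

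H1f2 encodes the linker histone H1.2. Its brightest probe set fell most in scr, at 8.11, 6.33, 5.87 and 5.27 log2 at 1, 6, 12 and 22 h. In sh133 the same times gave 7.91, 7.21, 7.24 and 7.11. In sh14 they gave 6.82, 6.41, 6.15 and 6.11. At 1 h scr was the highest of the lines, and at 22 h it was the lowest. Every sh14 array lay below every sh133 array, while scr spanned both. From 1 to 22 h the log2 signal fell by 0.71 in sh14, by 0.80 in sh133 and by 2.85 in scr, a signal 1.63-fold, 1.75-fold and 7.19-fold lower at 22 h than at 1 h. Both arrays of each of these differences carry the same date string. In scr, 15 of 12673 genes (0.118%) fell more than H1f2, against 3.29% in sh14 and 3.31% in sh133. In bulk RNA, fewer cells of a type and less RNA per cell cannot be told apart.

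The order of the lines therefore turned with time. sh133 minus scr was -0.20 at 1 h, 0.88 at 6 h, 1.37 at 12 h and 1.84 at 22 h, the first and last of these within date set 2. sh14 minus scr was -1.30 at 1 h, 0.08 at 6 h, 0.28 at 12 h and 0.85 at 22 h. Fitted on log2 hours, the slope in the hairpin lines exceeded that in scr by 0.46 ± 0.04 log2 units per doubling of hours (SE), with 4 residual degrees of freedom. Without the term for date sets it was also 0.46. A second H1f2 probe set, dimmer than the first, followed it over the 12 arrays (r = 0.96) and gave a slope difference of 0.40 ± 0.06. In scr it fell by 2.51, against 0.77 in sh14 and 0.45 in sh133. The third lay between 2.19 and 2.50 on all arrays and did not follow (r = -0.11), with a slope difference of -0.06 ± 0.05.

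**Figure D1:**
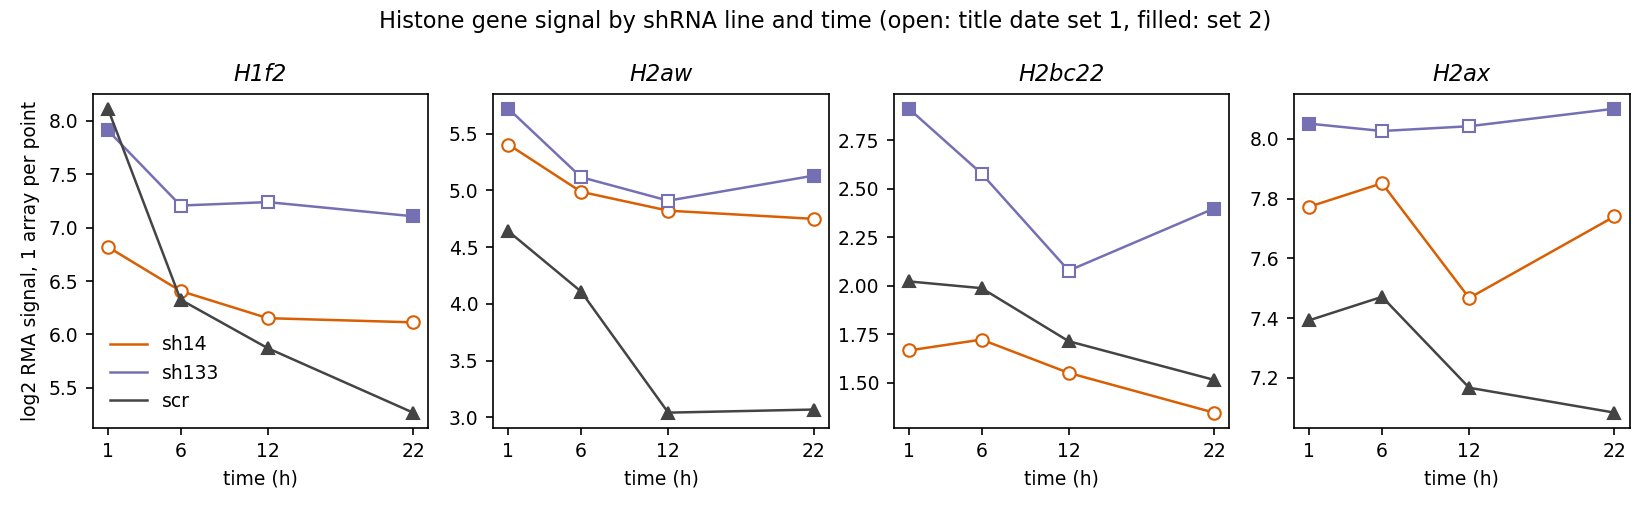
Log2 RMA signal (vertical axes, scaled per panel) against time in hours for H1f2, H2aw, H2bc22 and H2ax in sh14, sh133 and scr, 1 array per point, with open symbols for date set 1 and filled for set 2. H1f2 in scr starts above both hairpin lines at 8.11 and ends below them at 5.27, and H2aw in scr lies below both hairpin lines at all 4 times.

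H2aw encodes an H2A core histone from the small histone cluster on chromosome 11. Its signal was higher in both hairpin lines than in scr at every time. The log2 values at 1, 6, 12 and 22 h were 5.41, 4.99, 4.82 and 4.75 in sh14. In sh133 they were 5.72, 5.12, 4.91 and 5.13. In scr they were 4.64, 4.11, 3.04 and 3.07. No hairpin array reached down to the highest scr array, and sh14 and sh133 overlapped each other. sh14 minus scr was 0.76 at 1 h, 0.88 at 6 h, 1.78 at 12 h and 1.68 at 22 h. sh133 minus scr was 1.08, 1.01, 1.87 and 2.06 at the same times. Both differences were smaller at 1 and 6 h than at 12 and 22 h. Fitted over the 12 arrays, sh14 exceeded scr by 1.46 ± 0.36 (SE), a 2.76-fold signal, and sh133 exceeded scr by 1.60 ± 0.24, a 3.03-fold signal. Within date set 2 alone, sh133 exceeded scr by 1.57 ± 0.22. From 1 to 22 h the signal fell by 0.66 in sh14, by 0.59 in sh133 and by 1.57 in scr. The slope difference between hairpin lines and scr was 0.24 ± 0.06 log2 per doubling of hours.

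The H2aw probe set used is of a type that can match more than 1 transcript. A dim one, with line means of 1.47 in sh14, 1.72 in sh133 and 1.13 in scr, all below every array median, gave sh133 minus scr 0.52 ± 0.17 and sh14 minus scr 0.20 ± 0.26. Of the 3 tested genes on each side of H2aw, 0 of 6 passed the limma test in either hairpin line, with sh133 differences from -0.31 to 0.27. These 6 include only genes with a probe set of their own. A probe set annotated to a pair of H2B genes closer to H2aw was higher in both lines and is described with the probe sets of several genes.

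H2ax encodes H2A.X, the H2A variant that is phosphorylated next to DNA breaks. It was nearly constant in sh133, at 8.05, 8.03, 8.04 and 8.10 log2 at 1, 6, 12 and 22 h. In sh14 it was at 7.77, 7.85, 7.47 and 7.74, and in scr at 7.39, 7.47, 7.17 and 7.08. The sh133 arrays all lay above those of the other lines. The lowest sh14 array, at 12 h, lay just below the highest scr array, at 6 h. Fitted differences from scr were 0.46 ± 0.20 for sh14 and 0.79 ± 0.13 for sh133 (SE), signals 1.38-fold and 1.73-fold those of scr. sh133 exceeded scr by 0.66 at 1 h and 1.02 at 22 h within date set 2. Over time H2ax differed little, by -0.03 in sh14, 0.05 in sh133 and -0.31 in scr between 1 and 22 h.

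H2bc22 encodes an H2B core histone of the large histone cluster on chromosome 13. It was dim, close to the array medians, so the sizes of its differences are uncertain. At 1, 6, 12 and 22 h it was at 1.67, 1.72, 1.55 and 1.35 log2 in sh14. In sh133 it was at 2.91, 2.58, 2.08 and 2.40, and in scr at 2.02, 1.99, 1.71 and 1.51. The sh133 arrays lay above all others, narrowly so between the lowest of sh133, at 12 h, and the highest of scr, at 1 h. sh14 was below scr at every matched time, by 0.16 to 0.36 in size, yet the fit with the date term gave sh14 minus scr as 0.20 ± 0.17 (SE), and without it -0.24 ± 0.11. Its direction in sh14 is thus not settled. For sh133 minus scr the fits gave 0.90 ± 0.11 with the term, 0.68 ± 0.11 without it, and 0.89 ± 0.15 within date set 2. For sh14 minus sh133 they gave -0.70 ± 0.11 with the term and -0.69 ± 0.12 within date set 1. Its probe set shares its target sequence record with one annotated to 11 genes, and their signals correlated at r = 0.96 over the 12 arrays, so H2bc22 cannot be separated from other H2B genes here.

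Because the genes were chosen with values from these arrays known, their calls are a description only. Past a limma adjusted p of 0.05 were 3 of 4 genes higher in sh133 than in scr (H2aw, H2bc22 and H2ax), against 2.45% of all 12673 tested genes. Without the sh133 array at 22 h this was 1 (H2bc22), and without the scr array at 1 h or without the date term it was 4, and without the term 12.6% of all genes passed in either direction. In sh14 minus scr it was 0 of 4, against 1.5% called higher, 2 (H2aw and H2ax) without the date term, when 23.7% of all genes passed, and 1 (H2aw) without the scr array at 1 h. For both hairpins together minus scr, H2aw alone was higher, against 1.14% of genes, and 0 were without any 1 of 7 arrays (all of sh133, sh14 at 6 or 12 h, or scr at 22 h). Between the hairpin lines H2bc22 alone was lower in sh14, against 7.11% of genes. The count was 0 without the sh133 array at 6 h, 2 (with H1f2) without the scr array at 1 or 22 h, and 3 (with H1f2 and H2ax) without the date term, when 24.7% of all genes passed. For 22 h minus 1 h, 3 of 4 were lower (H1f2, H2aw and H2bc22), against 9.34%, with only H2bc22 left without the scr array at 22 h, and H1f2 and H2aw without the sh133 array at 1 or 22 h. H1f2 was past the threshold for the slope difference, as were 0.0237% of all genes in that direction. It was not past it without any 1 of the 4 scr arrays, without sh14 at 1 h, or with the mean over its 3 probe sets. Arrays of 2 lines did not overlap for 3 of 4 genes in sh133 against scr (higher in sh133, as for 6.3% of all genes), for 1 of 4 in sh14 against scr (9.24%), and for 3 of 4 in sh14 against sh133 (lower in sh14, 10.7%). The comparisons of sh14 and sh133 with scr share the scr arrays.

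**Figure D2:**
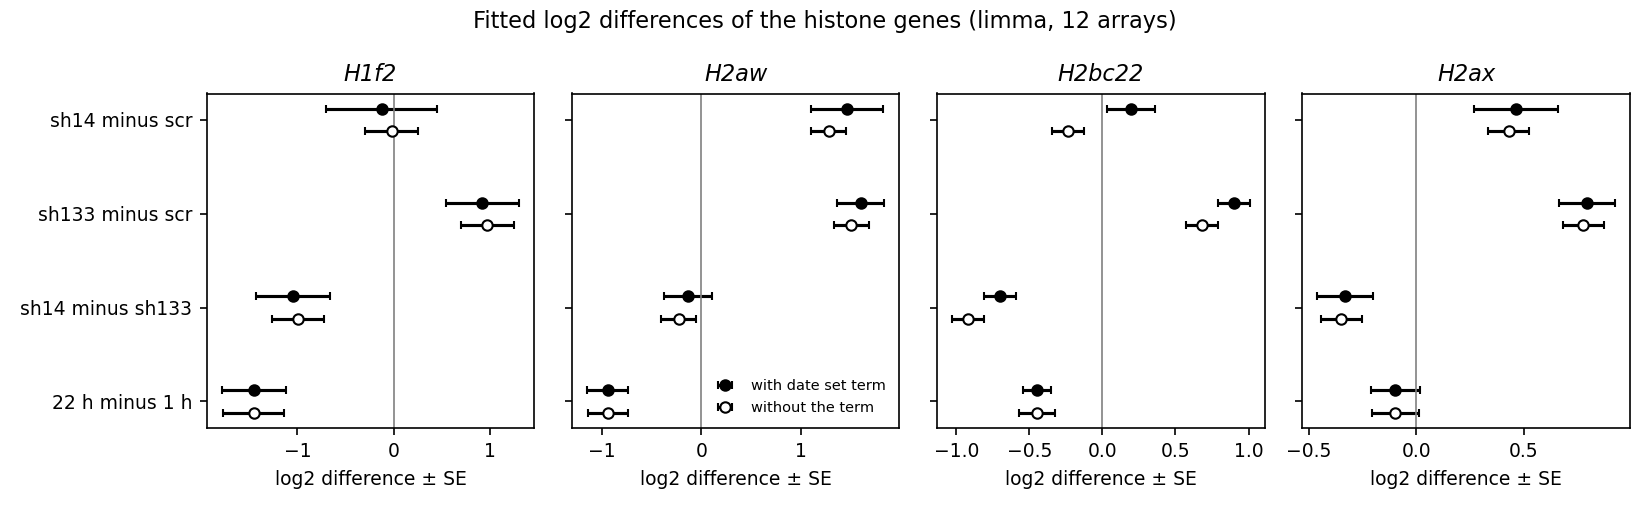
Log2 differences (horizontal axes, scaled per panel) with SE for H1f2, H2aw, H2bc22 and H2ax in 4 comparisons, from limma over 12 arrays with (filled) and without (open) a term for the date set. H2aw lies above 0 for both hairpin lines under both fits, and H2bc22 in sh14 minus scr changes side, from 0.20 with the term to -0.24 without it.

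Among histone genes outside the list, 25 had a probe set of their own and 15 were bright enough to test. By limma none passed in sh14, in sh133 or in both hairpins together against scr, where 3.06%, 4.91% and 2.18% of all genes did in either direction. For sh14 and sh133 the medians were 0.04 and 0.10, against 0.02 and 0.01 for all genes. Without the date term 4 passed in sh14 (H2aj, H2az1, H2bc21 and Macroh2a1, all higher) and 3 in sh133 (H2bc21 and H3c4 higher, H3f3b lower), against 23.7% and 12.6% of all genes, all named after their values were seen. Between the hairpin lines 3 passed, against 14.6% of genes. H3f3b, one of the genes for the replacement histone H3.3, was at 3.29 ± 0.39 in sh14 and 2.61 ± 0.15 in sh133 (SD, n = 4), a difference of 0.77 ± 0.14 (SE, limma adjusted p = 0.0051). The 1 probe set naming H3f3b alone was dim, with a mean of 2.96, so the size of this difference is uncertain. Macroh2a1, for the macroH2A variant linked with silent chromatin, was at 8.32 ± 0.23 in sh14 and 7.85 ± 0.44 in sh133 (0.58 ± 0.15, limma adjusted p = 0.0304). H2ac19, an H2A gene, was at 3.72 ± 0.08 in sh14 and 4.08 ± 0.12 in sh133 (-0.40 ± 0.11, limma adjusted p = 0.0353). This count ran from 0 (without sh133 at 12 h) to 4 with 1 array left out, and was 1 without sh14 at 6 or 12 h, sh133 at 6 h or scr at 6 h.

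For 22 h minus 1 h, Macroh2a1 alone passed, as did 18.1% of all genes (-0.62 ± 0.13 SE, limma adjusted p = 0.0104), falling by 0.22 in sh14, by 1.03 in sh133 and by 0.60 in scr. The count was 0 without sh133 at 1 or 22 h, and 2 without scr at 1 or 22 h or sh14 at 22 h. With the date term the H2A.Z genes did not pass in any comparison, while without it H2az1 passed in sh14 and in both hairpins together against scr (limma adjusted p = 0.0151 and 0.0463). H2az1 was at 10.8 ± 0.08 in sh14, 10.6 ± 0.03 in sh133 and 10.5 ± 0.07 in scr (SD, n = 4). No other linker histone gene with a tested probe set (H1f6, H1f7 and H1f10) passed in any comparison. Their mean signals were 2.28, 1.62 and 2.55, near the array medians, so little can be read from this. For the slope difference 0 of 15 passed, against 0.0316% of all genes.

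**Figure D3:**
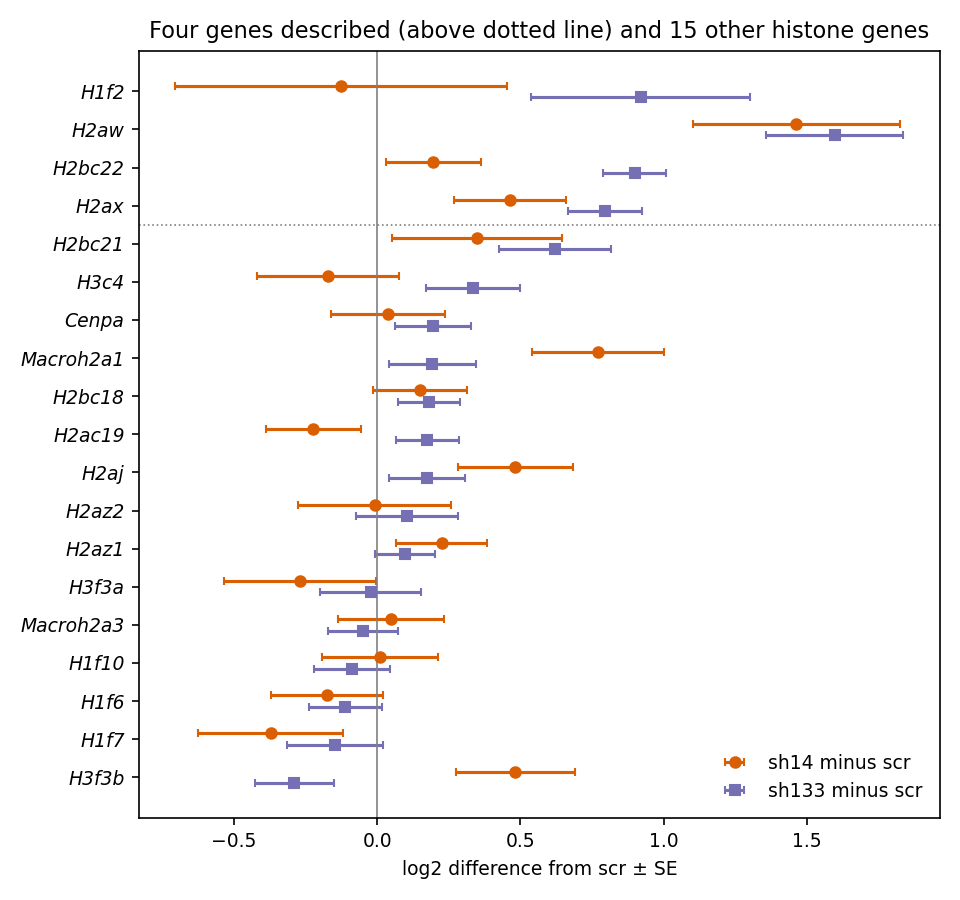
Log2 difference from scr with SE (horizontal axis) for sh14 and sh133 in the 4 genes described, above the dotted line, and in 15 other histone genes, from limma over 12 arrays. H2aw stands farthest right in both hairpin lines (1.46 and 1.60), while the other 15 genes lie between -0.37 and 0.77.

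Most replication-dependent histone genes are so alike that a probe set matches several of them. The annotation held 20 probe sets whose genes were all histone genes but more than 1. Of these, 12 passed the same signal filter and were tested in a fit over 27061 probe sets. This set was added after the other lists, and 1 of its probe sets includes H2bc22. In sh133 minus scr 6 of 12 were higher and 0 lower, against 1.56% and 1.63% of all probe sets, and the median was 0.81. They were 3 H2B, 2 H4 and 1 H3 probe sets. Of the H2B ones, 1 shares its target sequence record with the H2bc22 probe set, and probe sets of a class may share genes. The 6 are thus not separate observations. Without the sh133 array at 22 h the count was 1. An H4 probe set annotated to 13 genes was at 5.89, 5.98, 5.87 and 5.83 log2 in sh133 at 1, 6, 12 and 22 h, against 4.97, 4.86, 4.82 and 4.85 in scr (1.01 ± 0.14 SE, limma adjusted p = 0.0040). The 2 lines did not overlap, as for 6.3% of the genes with a tested probe set of their own. In sh14 minus scr 1 of 12 passed, higher, against 0.732% of probe sets, and 0 without any 1 of 8 arrays (all of sh133, sh14 at 6 h, or scr at 6, 12 or 22 h). That 1 was an H2B probe set annotated to a pair of genes lying 2 and 3 places from H2aw in gene order on chromosome 11.

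It gave 3.51, 3.41, 3.11 and 3.64 log2 at 1, 6, 12 and 22 h in sh14. In sh133 it gave 3.58, 3.75, 3.86 and 4.03, and in scr 2.11, 2.02, 2.00 and 1.99. All hairpin arrays lay above all scr arrays. Of the 12673 genes with a tested probe set of their own, 9.24% separated so in sh14 and 6.3% in sh133. The share over all probe sets, or in both lines at once, was not counted. The fitted differences of this H2B probe set were 1.21 ± 0.23 for sh14 and 1.68 ± 0.15 for sh133 (SE, limma adjusted p = 0.0332 and 0.00043), and scr lay near the array medians. Between the hairpin lines 4 of 12 probe sets were lower in sh14 (2 H2B and 2 H4), against 5.0% of probe sets, and 1 without sh133 at 12 h or 2 without sh133 at 6 h. For 22 h minus 1 h 3 were lower (2 H2B and 1 H4), against 8.31%, and 1 without sh14 or scr at 1 h. The H2B probe set that shares its target record with that of H2bc22 is in both of these counts. The brightest of the 12, an H2A probe set at 11.3 ± 0.16 in sh14, 11.5 ± 0.06 in sh133 and 11.4 ± 0.36 in scr (SD, n = 4), did not pass in any of these comparisons.

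Of 25 tested genes for histone transcription and mRNA processing, 0 passed in sh14 and 2 in sh133 against scr, where 3.06% and 4.91% of all genes did. The 2 went in opposite directions. Cstf2t, for a cleavage stimulation factor, was higher (0.74 ± 0.16 SE, limma adjusted p = 0.0273). Cpsf2, for a subunit of the complex that cleaves pre-mRNA 3' ends, was lower (-0.52 ± 0.12, limma adjusted p = 0.0372). Between the hairpin lines 4 of the 25 passed, against 14.6% of all genes: Nfya and Lsm1 were lower in sh14 than in sh133 (-0.66 and -0.37), and Cpsf3 and Lsm10 were higher (0.54 and 0.51). Lsm10, for a protein of the histone pre-mRNA processing particle, alone of the 25 passed for 22 h minus 1 h (0.40), against 18.1% of all genes. Of 30 chaperone and import genes, 1 passed in sh133 and 0 in sh14 against scr, where 4.91% and 3.06% of all genes did. That 1 was Cabin1 of the HIRA complex (-0.65 ± 0.14, limma adjusted p = 0.0290). Between the hairpin lines 2 of the 30 passed, against 14.6% of all genes. These were Asf1b, a chaperone of H3 and H4, and Dnajc9, both lower in sh14 (-0.72 ± 0.14 and -0.66 ± 0.13, limma adjusted p = 0.0073 and 0.0075). Tonsl rose for 22 h minus 1 h (0.38) and the importin gene Ipo4 fell by 0.54, 2 of 30 against 18.1% of all genes.

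Among 22 genes linked with H2A.X phosphorylation, a list wider than the kinases and readers of the mark, 0 passed against scr in either hairpin line. The shares of all genes were 3.06% for sh14 and 4.91% for sh133. Between the lines 4 of the 22 passed, a count near the 14.6% of all genes. Brca1 was lower in sh14 than in sh133 (-0.92 ± 0.16 SE, limma adjusted p = 0.0038), and Kat5, Uimc1 and Brcc3 were higher (0.72, 0.60 and 0.49). Of 21 genes tied to erythroid chromatin condensation, 1 passed in sh14 and 0 in sh133 against scr, where 3.06% and 4.91% of all genes did. That 1 was the acetyltransferase gene Kat2a (-0.73 ± 0.15, limma adjusted p = 0.0301). Between the hairpin lines 5 were lower in sh14 and 0 higher, against 7.11% and 7.54% of all genes, among them Kat2a (-0.80), the condensin genes Smc2 (-0.63) and Ncaph (-0.57), and Top2a (-0.54), for a topoisomerase. For 22 h minus 1 h 3 rose, Rbm38, Smc4 and Smc2 (0.52, 0.51 and 0.41), against 8.74% of all genes. Of the 22 genes of the H2A.X list, Chek2 and Rnf168 rose over the same hours (0.69 and 0.31), against the same 8.74% of all genes.

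Replication-dependent histone mRNA usually rises and falls with S phase, and the histone probe sets differed in how they followed the S phase genes in scr. The mean log2 signal of 29 S phase genes at 1, 6, 12 and 22 h was 7.07, 6.76, 6.96 and 7.08 in sh14. In sh133 it was 7.24, 7.23, 7.40 and 7.37, and in scr 6.99, 6.96, 7.56 and 7.67. Over the same hours H1f2 and H2aw in scr had lower signals at 22 h than at 1 h. The brightest probe set of several H2A genes went with the S phase genes in scr, at 11.1, 11.0, 11.6 and 11.8, and so did an H3 probe set annotated to 12 genes, at 3.64, 3.81, 4.28 and 4.51. Neither passed the limma test for time or slope, and both were picked for their course in scr. Others fell in scr between 1 and 22 h. An H2B probe set went from 5.91 to 4.44 and another from 6.05 to 5.21. An H4 probe set went from 3.66 to 2.85 and a further H2A one from 3.08 to 2.34. For 22 h minus 1 h 4 of the 29 rose (Cdc6 at 1.19, Ccne1 at 0.68, Rrm2 at 0.65 and Fen1 at 0.49) and 0 fell, against 8.74% and 9.34% of all genes. Against scr 1 of the 29 passed in each hairpin line, where 3.06% (sh14) and 4.91% (sh133) of all genes did. Rfc4 was lower in sh14 (-0.96 ± 0.20 SE, limma adjusted p = 0.0299), and Cdk2 was higher in sh133 (0.55 ± 0.14, limma adjusted p = 0.0467). Between the lines 7 were lower in sh14 and 0 higher, against 7.11% and 7.54% of all genes. The part of S phase content in the histone values was not tested, nor how far mRNAs without a poly(A) tail were read.

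Over the 12 arrays, which share line, time and date set, the signals of the genes described correlated with each other at r = 0.50 to 0.86, lowest for H2aw with H2bc22 and highest for H2aw with H2ax. Among 12669 other genes, those most like H1f2 by Pearson correlation were Copa (r = 0.97), Tnrc6a (0.96) and Copb1 (0.93). Those most like H2aw were Ptgr1 (0.96), F2r (0.93) and Snhg4 (0.93). Those most like H2ax were Tmsb4x (0.93), Rab37 (0.92) and Dpm1 (0.92). Those most like H2bc22 were Zscan12 (0.95), Anp32a (0.94) and Gm13238 (0.93), and Zscan12 lies on the same chromosome, 40 places away in gene order. Of the 3 tested genes on each side of H2bc22, Zkscan8 alone passed, lower in sh14 (-0.72, limma adjusted p = 0.0319) and higher in sh133 (0.50, limma adjusted p = 0.0196) than in scr. These 6 ran from -0.72 to 0.35 for sh14 minus scr. Of the 6 beside H1f2, Ripor2 alone passed, higher in sh133 than in scr (2.12, limma adjusted p = 0.00055). For sh14 minus scr they ran from -2.33 (Btn1a1, limma adjusted p = 0.0580) to 0.62. None of the 6 beside H2ax passed in either line.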

How the data were processed

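Labelled RNA from each of 12 samples was read on an Affymetrix mouse expression array, per the labels' protocols. How far mRNAs without a poly(A) tail were labelled was not tested, so the signals may not stand for all histone mRNA. The deposited values are log2 probe set signals that the authors made with RMA, as the submitters' processing notes record; its version is not stated there. It subtracts background, equalises arrays and summarises probes, so total RNA differences cannot be read. Background correction was not varied. 

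The platform annotation gave 1 gene for 34958 of 45101 probe sets, several for 932 and none for 9211. Of the first, 34754 had an Entrez identifier in the RefSeq table (GRCm38.p6), which gave current symbols. The probe set of highest mean stood for a gene, and genes under the 40th percentile of means (log2 1.45) were left out, leaving 12673, which include all 4 genes described. The fits used limma 3.58.1 (R 4.3.3) with terms for line, time as a factor and date set (5 residual degrees of freedom, 4 with the slope term), and Benjamini-Hochberg adjustment over all genes at a threshold of 0.05. The pipeline was tested on simulated data. The number of arrays limits the precision. Figures used Python 3.11.15.

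The genes and lists were chosen with earlier results of these data known. Genes named are those described, up to 4 genes of largest change past the threshold per list and comparison, all other histone genes past it, and the 3 most correlated with each gene described. Genes beside them on the map and the probe sets of several genes were added later. Alternatives were no date term, other filters, the mean over probe sets or each probe set alone, centring, time as log2 hours, array weights, robust variances, fits within a date set, and each array left out.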

Additional observations from a re-analysis of the deposited data

Results flagged for a closer look

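Among 21 groups of 4 arrays (the 4 genes described and 3 other histone genes that passed a test, in each line), 1 held an array far from the rest. It was H1f2 in sh133 at 1 h, with a log2 signal of 7.91 against 7.11 to 7.24 at the later times. For repeat arrays chance flags about 1 in 20, but these 4 arrays differ in time, so that rate does not apply. The second H1f2 probe set gave 6.56, 6.58, 6.60 and 6.11 in sh133 at 1, 6, 12 and 22 h.

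The effect of time differed between the hairpin lines and scr for H1f2, with a slope difference of 0.46 ± 0.04 (SE) log2 per doubling of hours. For H2bc22, sh14 minus sh133 was -0.70. H1f2 and H2bc22 were chosen with these values known, and no test is read from them. The hairpin lines also differed in H3f3b (0.77), Macroh2a1 (0.58) and H2ac19 (-0.40), by the limma test of sh14 against sh133.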

How the results depend on the processing

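No paired analysis was possible because the labels give no replicate numbers, and arrays of a time were matched by the time term. Of 506 values of the genes described under alternatives, 473 moved by less than 1 residual SD and 33 by more, and none of those past the threshold changed sign. Many of the 473 could not move. Other filters, each probe set alone and robust variances leave a gene's fitted difference as it was, as does leaving out some arrays. A move under 1 residual SD can also be large: H1f2 for sh14 minus scr went from -0.13 to -0.61 without sh133 at 22 h. The count of 473 is thus no measure of stability. The causes were not tested except where a setting averages in dim probe sets. Without the date term H2bc22 was at -0.24 for sh14 minus scr, 0.68 for sh133 minus scr, 0.22 for both hairpins minus scr (0.55 with it) and -0.92 for sh14 minus sh133, and the other histone genes past the threshold numbered 4, 3, 4 and 5 in these comparisons. With time as log2 hours H2bc22 was at 0.0033, 0.80, 0.40 and -0.80, and 1 other histone gene passed between the hairpin lines and 0 for 22 h minus 1 h. Averaging a gene's probe sets, which brings in dim ones, gave H2aw 0.83 for sh14, 1.06 for sh133 and 0.95 for both hairpins minus scr and -0.52 for 22 h minus 1 h, and an H1f2 slope difference of 0.27, no longer past the threshold. With array weights, 5 other histone genes passed between the hairpin lines, 2 for 22 h minus 1 h and 1 for the slope.

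With 1 array left out in turn, H1f2 ran from -0.78 to 0.75 for sh14 minus scr, 0.43 to 1.57 for sh133 minus scr, -0.17 to 1.16 for both hairpins minus scr, and -1.80 to -0.87 for 22 h minus 1 h, the ends of the first 3 being without scr at 22 h and at 1 h, and -0.87 without scr at 1 h. H2aw ran from 1.15 to 1.84 for sh14 minus scr and 0.20 to 0.47 for the slope. H2ax ran from 0.28 to 0.64 for sh14 minus scr, -0.51 to -0.15 for sh14 minus sh133, 0.48 to 0.74 for both hairpins minus scr, and 0.0049 to 0.20 for the slope. H2bc22 ran from 0.056 to 0.33 for sh14 minus scr and -0.84 to -0.56 for sh14 minus sh133. Other histone genes past the threshold numbered 0 to 1 for sh14 and for sh133 minus scr, 0 to 4 for sh14 minus sh133, and 0 to 2 for 22 h minus 1 h. Probe sets of several histone genes past it numbered 1 to 7 for sh133 minus scr, and 7 without the date term. H2bc22 lies under the filter at the 60th percentile and has no value there.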
